A study of Mus musculus with 9 samples.

Results

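The genes described here make up the ATF4 and CHOP arm of the integrated stress response: Atf4, Atf5, Ddit3, Cebpb, Trib3, Chac1, Ddit4, Sesn2, Nupr1 and Ppp1r15a. These 10 genes were matched by symbol, through their Ensembl identifiers, among the 16962 genes of the deposited tables, and they were picked because Trib3, Chac1 and Ddit4 fell strongly in these same libraries. Their differences from the control libraries are therefore given as a description, with no test, and the tests below concern the difference between the hairpins and other genes of the pathway. RNA-seq had been made in 9 libraries of 4T1, a mouse mammary carcinoma cell line, to find which genes change when Yap is knocked down. Yap is the transcriptional co-activator encoded by Yap1. Of the 3 groups of 3 libraries, shCTRL carried a control hairpin and is labelled wild type with a negative control, while shYap-1 and shYap-2 each carried a different short hairpin RNA against Yap. The labels give no dose, no time after the hairpins were introduced and no word on whether replicates came from separate cultures, so p-values measure only the spread between these libraries.

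In the integrated stress response, kinases that sense amino acid shortage, unfolded protein in the endoplasmic reticulum, viral RNA or haem shortage phosphorylate the translation factor eIF2. General translation then slows while the Atf4 mRNA is translated more, and ATF4 protein switches on genes for amino acid uptake and synthesis, redox balance and, through CHOP, the product of Ddit3, cell death. In tumour cells the pathway is known for supporting growth when nutrients are short. GADD34, the product of Ppp1r15a, brings a phosphatase to eIF2 and so closes the loop.

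The 250 bases before the annotated start of each gene were read from RefSeq (GRCm38.p6), where 10 of the 10 genes had an entry. Shown, 5′ to 3′ on each gene's own strand, are the 3 genes lowest relative to shCTRL and the 2 other genes whose window held a searched motif of ATF4 or its relatives. Capitals mark the letters TGANGCAA, the core of the C/EBP-ATF response element, or TGACGTCA, the cyclic AMP response element, on either strand. The windows are chr2:152344061-152344310 (minus strand) for Trib3, chr2:119350992-119351241 (plus) for Chac1, chr10:59951771-59952020 (minus) for Ddit4, chr7:126625471-126625720 (minus) for Nupr1 and chr7:45526269-45526518 (minus) for Ppp1r15a. Starts here are those of RefSeq, while the gene positions given below are from GENCODE. By those positions the window of Nupr1 lies wholly within the gene, and those of Chac1 and Ddit4 partly so.
Trib3: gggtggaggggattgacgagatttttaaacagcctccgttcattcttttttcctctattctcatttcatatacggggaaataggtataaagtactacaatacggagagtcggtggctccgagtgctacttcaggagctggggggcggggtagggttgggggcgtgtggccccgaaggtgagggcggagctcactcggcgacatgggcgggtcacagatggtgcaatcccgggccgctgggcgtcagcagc
Chac1: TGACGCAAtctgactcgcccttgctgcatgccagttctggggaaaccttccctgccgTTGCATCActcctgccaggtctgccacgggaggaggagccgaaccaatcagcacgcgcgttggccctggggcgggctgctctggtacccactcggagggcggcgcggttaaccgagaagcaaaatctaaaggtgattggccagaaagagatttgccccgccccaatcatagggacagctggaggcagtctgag
Ddit4: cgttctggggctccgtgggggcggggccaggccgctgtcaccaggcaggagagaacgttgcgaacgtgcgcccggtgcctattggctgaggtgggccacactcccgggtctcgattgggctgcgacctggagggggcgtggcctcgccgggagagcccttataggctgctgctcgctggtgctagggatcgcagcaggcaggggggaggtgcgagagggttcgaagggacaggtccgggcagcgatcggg
Nupr1: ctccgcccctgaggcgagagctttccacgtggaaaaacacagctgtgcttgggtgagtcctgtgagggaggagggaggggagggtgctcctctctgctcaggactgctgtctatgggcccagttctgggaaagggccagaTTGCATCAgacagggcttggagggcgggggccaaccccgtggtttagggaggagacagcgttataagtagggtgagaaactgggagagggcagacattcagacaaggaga
Ppp1r15a: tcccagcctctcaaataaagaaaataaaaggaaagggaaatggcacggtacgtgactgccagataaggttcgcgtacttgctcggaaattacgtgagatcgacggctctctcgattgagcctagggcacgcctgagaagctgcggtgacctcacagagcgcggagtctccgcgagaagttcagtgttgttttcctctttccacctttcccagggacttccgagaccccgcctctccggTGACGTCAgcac

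Chac1 held TGANGCAA at 250 to 243 and at 193 to 186 bases before its start, and Nupr1 held it at 110 to 103 bases before its start. The stricter letters TGATGCAA, which the wider motif contains, stood in 2 of the 10 windows (Chac1 and Nupr1) and in 0.791% of 32851 mouse promoter windows of the same length, against 3.12% for TGANGCAA. TGACGTCA stood in the window of Ppp1r15a, 12 to 5 bases before its start, and in 1.55% of all windows. A CCAAT box (CCAAT, either strand) was found in 6 of the 10 windows, those of Atf4, Atf5, Chac1, Ddit3, Ddit4 and Sesn2, and in 33.8% of all windows. The endoplasmic reticulum stress element ERSE was in 0 of the 10 and in 0.113% of all. Among 30 further ATF4 targets with an entry, 7 held TGATGCAA (Aars, Fgf21, Got1, Herpud1, Pycr1, Slc7a11 and Vldlr). Such matches describe letters only: the windows of Trib3 and Ddit4 held no TGANGCAA, which says nothing of sites elsewhere.

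The knockdown and the libraries were checked first. Yap1 stood at 48.8 ± 0.475 FPKM in shCTRL, 8.77 ± 0.647 in shYap-1 and 10.4 ± 0.626 in shYap-2 (mean ± SD, n = 3 each), where FPKM is fragments per kilobase of transcript per M mapped fragments. Library depth, estimated from the smallest steps of the FPKM values, ran from 19.65 to 28.3 M fragments. The epithelial keratin and adhesion markers were at 1 FPKM or more for 8 of 8 genes in every group, with sums of 2017.9 to 2140.6 FPKM in shCTRL, 2492.9 to 2820.9 in shYap-1 and 2541.5 to 2580.3 in shYap-2. Of 9 leukocyte markers only Cd68, and of 8 fibroblast and endothelial markers only Pdgfra, reached a group mean of 1 FPKM. The leukocyte sum was 8.35 to 8.93 FPKM in shCTRL, 5.07 to 6.09 in shYap-1 and 5.28 to 5.84 in shYap-2, and the fibroblast and endothelial sum was 4.08 to 4.51, 2.77 to 3.14 and 2.38 to 3.17. The part of these marker levels in the values below was not tested. Replicate 2 of shYap-1 stood apart: between it and the other shYap-1 libraries the variance was 16.547 and 12.361 times the sampling noise, against 2.128 between replicates 1 and 3. In the other groups that ratio ran from 1.98 to 4.287.

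All 10 genes were lower with both hairpins, and for each of them all 3 libraries of either hairpin lay below all 3 shCTRL libraries. Trib3, Chac1 and Ddit4 were left at 7.62% to 12.7% of their shCTRL means, Atf4, Atf5, Ddit3, Sesn2 and Nupr1 at 21.6% to 36.0%, and Cebpb and Ppp1r15a at 55.4% to 70.3%. Their summed level was 1136.3 to 1212.4 FPKM in shCTRL, 238.2 to 268.9 in shYap-1 and 243.0 to 250.5 in shYap-2. Of all genes past the filter on low values, 30.6% of 10647 lay wholly below shCTRL with shYap-1 and 31.8% of 10615 with shYap-2, and nothing is read from these counts because the genes were picked from this contrast. The median log2 difference of the 10 genes was -1.87 with shYap-1 and -1.98 with shYap-2, on the log2(FPKM + 1) scale used for all differences here, beside 0.07 and 0.08 over all genes tested. Both comparisons share the same 3 shCTRL libraries. All 10 genes passed the filter, at 1 FPKM or more in all 9 libraries. In such bulk RNA, fewer cells expressing a gene and less RNA per cell cannot be told apart.

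**Figure D1:**
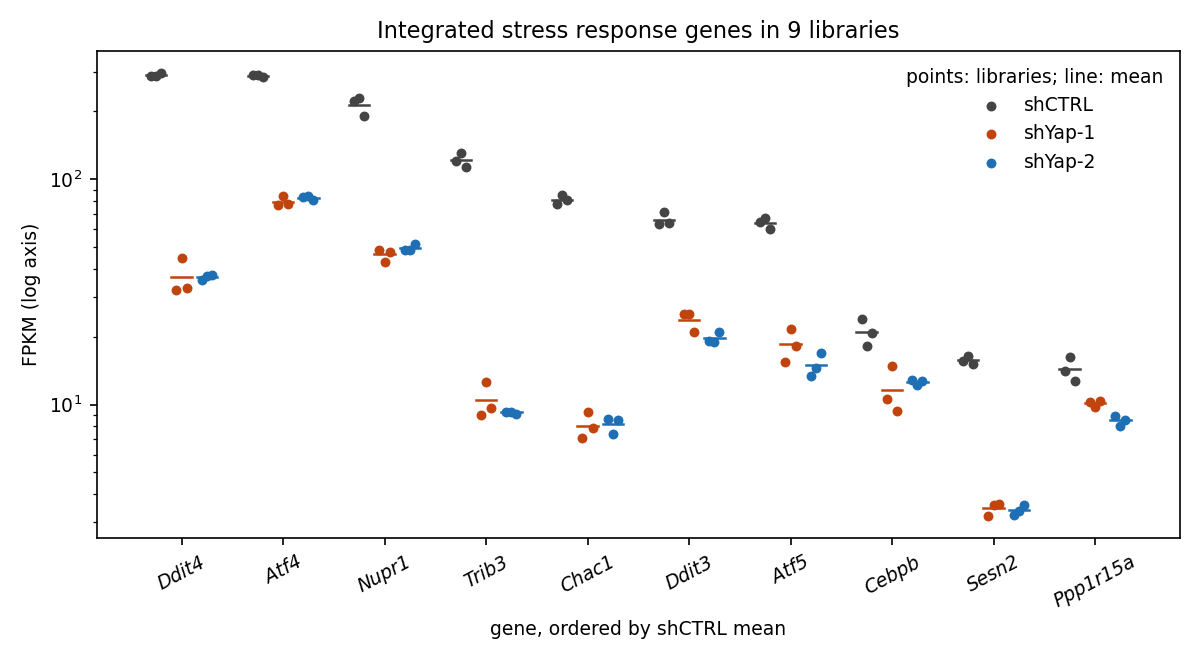
FPKM (log axis) of each of the 10 genes in the 9 libraries, coloured by group. For every gene the 3 shCTRL points lie above the 6 knockdown points, with the widest gaps for Trib3, Chac1 and Ddit4.

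Among the transcription factors, Atf4 (ENSMUSG00000042406, chr15:80255184-80257541 on GRCm38, as for all positions here), the activator at the head of this arm, was measured at 289.01, 290.42 and 283.06 FPKM in shCTRL replicates 1 to 3. It stood at 76.52, 84.12 and 77.69 with shYap-1 and at 83.1, 84.49 and 80.99 with shYap-2. The 6 knockdown libraries lay close together and far below the controls. The log2 difference was -1.84 (SE 0.056) with shYap-1 and -1.78 (SE 0.030) with shYap-2, a mean 3.62-fold and 3.47-fold lower. This is the level of the mRNA: translation of Atf4, through which the pathway acts on it, was not measured.

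Atf5 (ENSMUSG00000038539, chr7:44812256-44816658), a relative of Atf4 under similar translational control, had 64.87, 67.46 and 60.14 FPKM in shCTRL. With shYap-1 it had 15.49, 21.73 and 18.27, and with shYap-2 13.43, 14.51 and 17.0. Replicate 2 of shYap-1 was the highest of the knockdown libraries, and the hairpins' ranges overlapped. Its log2 difference was -1.75 (SE 0.117) with shYap-1 and -2.03 (SE 0.079) with shYap-2. Its exons share 82 bases with each of Nup62 and Il4i1 on the opposite strand, and whether strand was used in counting is not given in the sources used here.

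Ddit3 (ENSMUSG00000025408, chr10:127290774-127296288) encodes CHOP, the transcription factor tied to death under lasting stress. Its shCTRL levels were 63.5, 71.27 and 63.63 FPKM, those of shYap-1 were 25.1, 25.34 and 20.95, and those of shYap-2 were 19.16, 18.96 and 21.0. Only the lowest shYap-1 library, replicate 3, reached into the range of shYap-2. This gave a log2 difference of -1.44 (SE 0.090) with shYap-1 and -1.70 (SE 0.058) with shYap-2. Another identifier with the same symbol (ENSMUSG00000116429), whose 105 exonic bases lie within those of the first, was listed at 0.27 FPKM in shCTRL replicate 1 and at 0 in the other 8 libraries, so it did not pass the filter. Ddit3 also shares 68 exonic bases with Mars on the opposite strand.

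Cebpb (ENSMUSG00000056501, chr2:167688915-167690418), a bZIP factor that pairs with ATF4 and CHOP, was less reduced and more variable. It had 23.85, 18.14 and 20.7 FPKM in shCTRL, 10.54, 14.8 and 9.38 in shYap-1 and 12.82, 12.23 and 12.77 in shYap-2. The nearest values across groups were 18.14 in shCTRL and 14.8 in shYap-1 replicate 2. In log2 terms it stood at -0.82 (SE 0.167) with shYap-1 and -0.68 (SE 0.086) with shYap-2. Tmem189 on the opposite strand shares 312 of its 1504 exonic bases.

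The effector genes stood lowest relative to shCTRL. Trib3 (ENSMUSG00000032715, chr2:152337422-152344032) encodes a pseudokinase that binds AKT and ATF4 and dampens their activity. It had 120.36, 130.16 and 113.15 FPKM in shCTRL, 8.98, 12.62 and 9.7 in shYap-1 and 9.3, 9.31 and 9.1 in shYap-2. The shYap-2 libraries had an SD of 0.118 FPKM, while shYap-1 replicate 2 was the highest knockdown value. On the log2 scale it was -3.43 (SE 0.121) with shYap-1 and -3.58 (SE 0.053) with shYap-2, 11.6-fold and 13.1-fold in means. On the log2(FPKM + 1) scale this was the lowest difference of all genes tested with each hairpin. The added 1 FPKM weighs on low values, so this is not a ranking by fold change in means. With shYap-1, Slc7a11 (8.15 to 0.62 FPKM) and Cxcl5 (18.9 to 1.48) fell by larger factors than Trib3. Fgf21 (1.46 to 0.0733) did so with shYap-2.

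Chac1 (ENSMUSG00000027313, chr2:119351229-119354381) encodes a cytosolic enzyme that breaks down glutathione. Its levels were 77.88, 85.25 and 80.7 FPKM in shCTRL, 7.08, 9.24 and 7.87 in shYap-1 and 8.66, 7.39 and 8.5 in shYap-2. The ranges of the hairpins overlapped, and every knockdown library lay far below the controls. The log2 difference was -3.19 (SE 0.095) and -3.17 (SE 0.062), second lowest on that scale of all genes tested with both hairpins. The estimated number of fragments behind a Chac1 value was 297 to 3204 over the libraries.

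Ddit4 (ENSMUSG00000020108, chr10:59949669-59951834), also called REDD1, restrains the growth kinase mTORC1 through the TSC complex. In shCTRL it had 286.68, 287.09 and 296.46 FPKM, level with Atf4 as the most abundant of the 10. With shYap-1 it had 32.36, 44.64 and 32.97, and with shYap-2 35.69, 37.35 and 37.56. The shYap-2 values fell between those of shYap-1 replicates 1 and 3 and that of replicate 2. This gave a log2 difference of -2.97 (SE 0.118) with shYap-1 and -2.94 (SE 0.034) with shYap-2, rank 4 and rank 3 of all genes tested when sorted from the lowest.

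Sesn2 (ENSMUSG00000028893, chr4:132492032-132510501), a leucine sensor that also restrains mTORC1, had 15.64, 16.41 and 15.18 FPKM in shCTRL. It had 3.21, 3.59 and 3.63 in shYap-1 and 3.22, 3.37 and 3.59 in shYap-2, so the hairpins gave overlapping low values. The log2 differences of -1.90 (SE 0.078) and -1.93 (SE 0.062) understate the change of means, which was 4.53-fold and 4.64-fold, because the added 1 FPKM weighs on low values.

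Nupr1 (ENSMUSG00000030717, chr7:126623249-126630861), a small chromatin protein induced by stress, had 222.9, 229.85 and 190.53 FPKM in shCTRL. It had 48.72, 43.1 and 47.41 in shYap-1 and 48.71, 48.32 and 51.46 in shYap-2. Here shYap-1 replicate 2 was the lowest of the knockdown libraries, unlike for Trib3, Chac1 and Ddit4. On the log2 scale it was -2.18 (SE 0.086) with shYap-1 and -2.09 (SE 0.065) with shYap-2.

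The feedback gene Ppp1r15a (ENSMUSG00000040435, chr7:45522916-45526268), whose product GADD34 brings a phosphatase to eIF2 and so ends the response, was lowered least with shYap-1. It had 14.11, 16.32 and 12.76 FPKM in shCTRL, 10.22, 9.72 and 10.41 in shYap-1 and 8.93, 8.06 and 8.53 in shYap-2. All shYap-2 libraries lay below all shYap-1 libraries, which held for no other of the 10 genes. Its exons share 12 bases with Tulp2 on the opposite strand. In log2 terms it stood at -0.46 (SE 0.097) with shYap-1 and -0.69 (SE 0.085) with shYap-2.

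**Figure D2:**
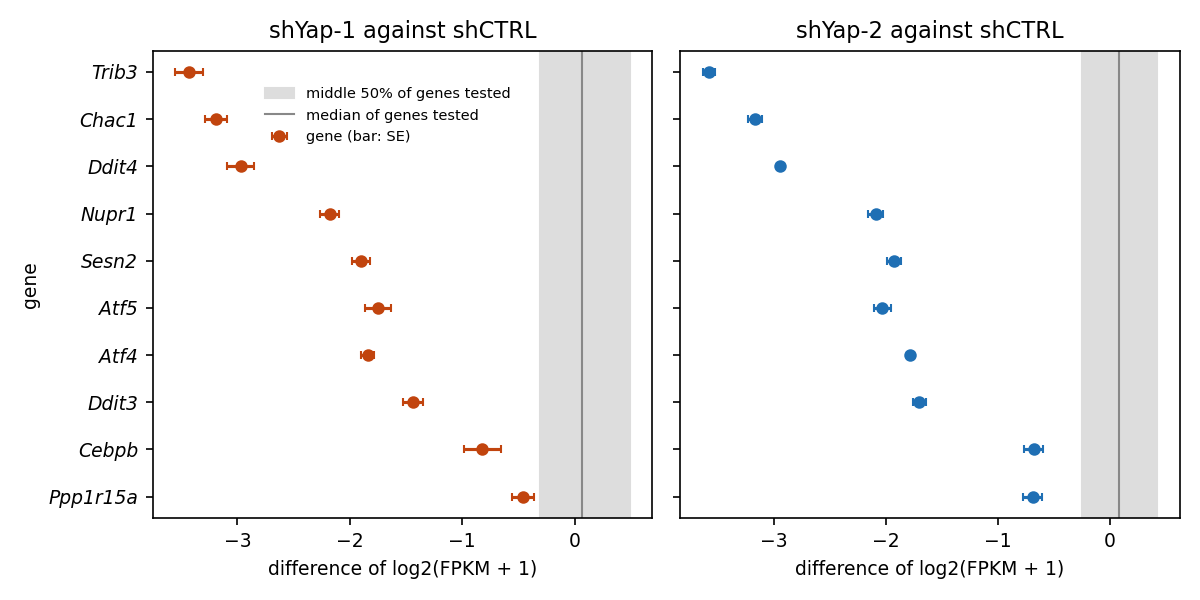
Difference of log2(FPKM + 1) from shCTRL for each of the 10 genes, with its standard error, in panels for shYap-1 and shYap-2; the grey band holds the middle 50% of all genes tested and the line their median. All 10 points lie left of the band, from -3.58 to -0.46.

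The genes did not keep their proportions to Atf4. Ddit4 stood at 100.9% ± 3.30 of the Atf4 level in shCTRL (SD, n = 3), at 45.9% ± 6.18 with shYap-1 and at 44.5% ± 1.73 with shYap-2. Trib3 went from 42.1% ± 2.46 of Atf4 to 13.1% ± 1.71 and 11.1% ± 0.115, and Chac1 from 28.3% ± 1.22 to 10.1% ± 0.866 and 9.89% ± 0.989. These effectors were thus reduced further than Atf4 itself. Nupr1 went from 74.5% ± 6.33 of Atf4 to 58.6% ± 6.55 and 59.8% ± 3.33, and Sesn2 from 5.47% ± 0.154 to 4.38% ± 0.257 and 4.1% ± 0.295. Atf5 stood at 22.3% ± 0.998, 23.2% ± 2.81 and 18.1% ± 2.55 of Atf4 in shCTRL, shYap-1 and shYap-2, and Ddit3 at 23.0% ± 1.36, 30.0% ± 2.92 and 23.8% ± 1.86. For Ddit3 the share was thus higher with shYap-1 and near that of shCTRL with shYap-2. Ppp1r15a was higher relative to Atf4 with both hairpins, from 5.0% ± 0.566 of Atf4 to 12.8% ± 1.05 and 10.3% ± 0.644, and so did Cebpb, from 7.27% ± 1.00 to 14.5% ± 2.83 and 15.2% ± 0.670. These ratios come from the contrast that chose the genes and carry no test.

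In shCTRL the order of levels, per transcript length, was Ddit4, Atf4, Nupr1, Trib3, Chac1, Ddit3, Atf5, Cebpb, Sesn2 and Ppp1r15a. Neighbours overlapped in that order for Ddit4 and Atf4, for Ddit3 and Atf5, and for Sesn2 and Ppp1r15a. With shYap-2 it became Atf4, Nupr1, Ddit4, Ddit3, Atf5, Cebpb, Trib3, Ppp1r15a, Chac1 and Sesn2, where only Ppp1r15a and Chac1 overlapped. With shYap-1 the means had the same order, with overlaps between Nupr1 and Ddit4, between Ddit3 and Atf5, and among Cebpb, Trib3 and Ppp1r15a. Trib3 thus went from the fourth place of the 10 to the seventh.

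The difference between the hairpins could be tested, since the rule did not rest on it. In a fit of all 9 libraries (limma, Benjamini-Hochberg adjustment over 10733 genes), 353 genes, or 3.29%, differed between shYap-2 and shYap-1 at an adjusted p under 0.05, and 0 of the 10 genes did. The count of all genes ran from 1 to 1646 when a library was left out, with 3, 1 and 1 genes without shYap-2 replicates 1, 2 and 3 and 1646 without shYap-1 replicate 2. An unadjusted p under 0.05 was reached by 3 of them. Ddit3 was lower by 0.26 with shYap-2 (log2 -0.26, 95% interval -0.44 to -0.07, limma adjusted p = 0.123). Atf5 had a difference of -0.28 (interval -0.54 to -0.02, limma adjusted p = 0.222) and Ppp1r15a one of -0.23 (interval -0.42 to -0.03, limma adjusted p = 0.182). Wholly separate replicates, as for Ppp1r15a, were seen in 25.9% of all genes. The tables share their shCTRL values exactly, so the fit across them compares values made the same way as far as the files show.

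For the other members the intervals include 0. They rest on an estimate of spread shared by the 3 groups and cover only the spread between these libraries, so they set no firm bound. The narrowest interval was that of Atf4, at 0.06 with an interval of -0.04 to 0.17. Ddit4 differed by 0.02 (interval -0.21 to 0.25), Chac1 by 0.02 (interval -0.18 to 0.23) and Trib3 by -0.15 (interval -0.38 to 0.09). Sesn2 differed by -0.03 (interval -0.19 to 0.13), Nupr1 by 0.09 (interval -0.08 to 0.26) and Cebpb by 0.14 (interval -0.19 to 0.46). The limma adjusted p of these 7 ran from 0.494 for Trib3 to 0.937 for Ddit4. Without shYap-1 replicate 2, Ddit4 differed by 0.17 (limma adjusted p = 0.014) and was the 1 member called.

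**Figure D3:**
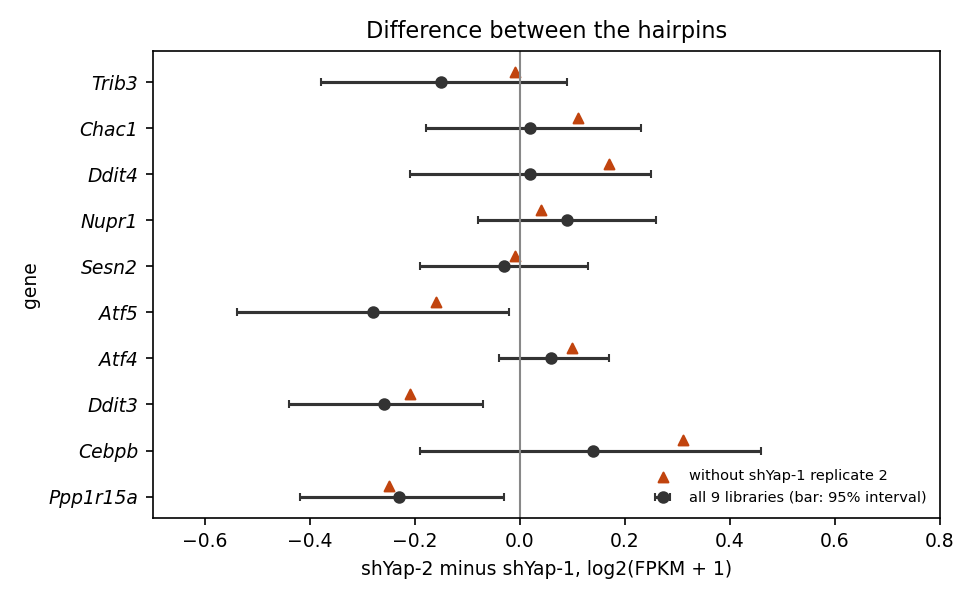
Difference of log2(FPKM + 1) between the hairpins (shYap-2 minus shYap-1) for each of the 10 genes: circles with 95% intervals are from all 9 libraries, triangles from the fit without shYap-1 replicate 2. The intervals of Ddit3, Atf5 and Ppp1r15a lie below 0, and those of the other 7 genes include 0.

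Replicate 2 of shYap-1 bore on these genes unevenly. Measured against the other shYap-1 libraries on the log2 scale, it was higher for Cebpb by 0.53, for Ddit4 by 0.44, for Trib3 by 0.40 and for Atf5 by 0.35, and lower for Nupr1 (-0.15) and Ppp1r15a (-0.08). Its median deviation over the 10 genes was 0.21, beside 0.19 over the 4514 genes with exonic GC content in the members' range and 0.01 over all genes. Across 10731 genes, which are not independent replicates, its deviation had a Spearman correlation of 0.748 with GC content. The members were GC-rich, from 51.7% for Ddit3 to 67.2% for Cebpb, against a median of 50.2%. Without that library the log2 differences from shCTRL were -3.56 for Trib3, -3.28 for Chac1, -3.11 for Ddit4 and -0.99 for Cebpb. With a linear trend on GC content removed, the median of the 10 genes was -2.06 with shYap-1 and -2.11 with shYap-2, beside -1.87 and -1.98. Over the alternatives that kept all libraries, Cebpb reached -1.22 with shYap-1 and -1.0 with shYap-2, beside -0.82 and -0.68. Beyond that fit, the part of GC content in these values was not tested.

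**Figure D4:**
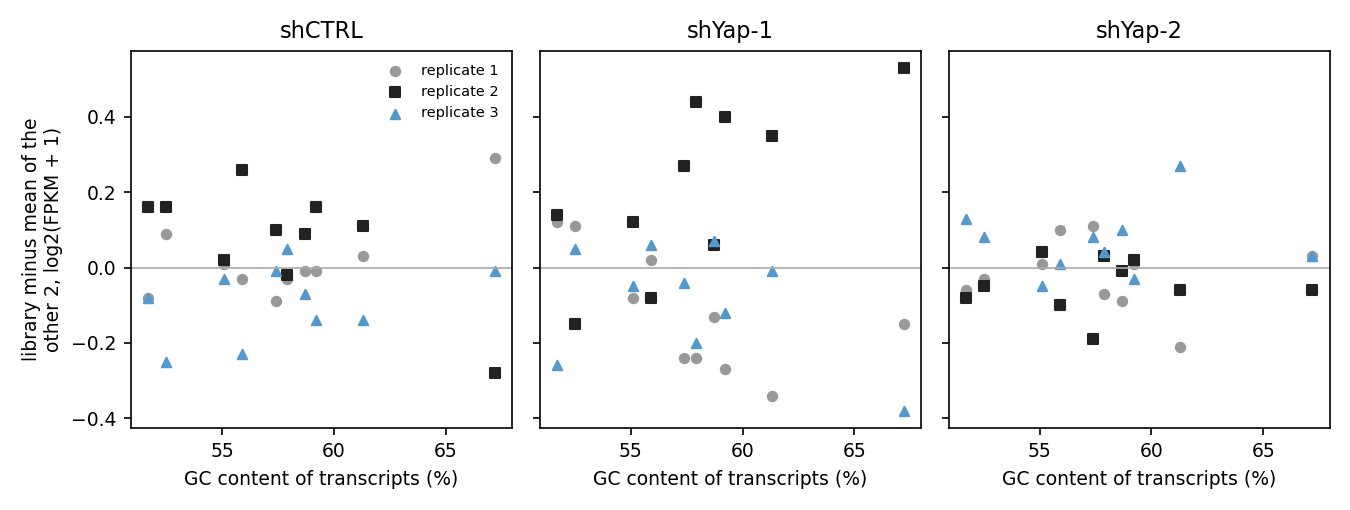
Deviation of each library from the mean of the other 2 libraries of its group, in log2(FPKM + 1), against the exonic GC content (%) of each of the 10 genes, in a panel per group with a marker per replicate. The points of shYap-1 replicate 2 spread widest, from -0.15 for Nupr1 to 0.53 for Cebpb.

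Genes listed for the eIF2 kinases and eIF2 control moved in both directions. The 22 genes cover eIF2, its kinases, its exchange factor, genes that regulate these, and the initiation factors Eif2a and Eif2d. Of them 7 rose and 4 fell with shYap-1, against 9 up and 3 down with shYap-2 (limma adjusted p under 0.05, against shCTRL). Their medians were -0.06 and 0.03. Over all genes tested, 37.6% rose and 27.6% fell in shYap-1 libraries, and 43.2% rose and 30.5% fell in those of shYap-2. Scaling the libraries by trimmed means or by the median of ratios moved the median of all genes from 0.07 and 0.08 to between -0.04 and -0.02, and then 6 of the 22 rose and 8 fell with either hairpin. Over all genes, trimmed-mean scaling turned the split from 4002 higher and 2941 lower to 3317 and 3639 with shYap-1, and from 4586 and 3237 to 3781 and 4047 with shYap-2.

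Eif2ak2, the kinase PKR that senses double-stranded RNA, rose most of the eIF2 kinase genes, from 8.95 ± 0.767 FPKM to 30.1 ± 6.60 with shYap-1 (log2 1.62, limma adjusted p = 9.27e-05) and 24.3 ± 1.41 with shYap-2 (1.35, adjusted p = 2.26e-07). Eif2ak3, the kinase PERK of the endoplasmic reticulum, rose by 0.58 (limma adjusted p = 0.000411) and 0.30 (0.00199). Eif2ak1, the haem-regulated kinase HRI, and Eif2ak4, the amino acid sensor GCN2, passed with shYap-2 only, at 0.19 and 0.16, and neither passed under either scaling or without shYap-2 replicate 1. Eif2ak4 also did not pass without shCTRL replicate 1 or 2 or shYap-2 replicate 2, and Eif2ak1 passed with shYap-1 (0.24, limma adjusted p = 0.012) without its replicate 2. That they differ between hairpins was not shown, since both had limma adjusted p above 0.05 in the direct test (0.937 and 0.349). Ppp1r15b, the constitutive counterpart of Ppp1r15a in control of eIF2 dephosphorylation, fell (log2 -0.64 and -0.54, limma adjusted p = 0.000255 and 5.06e-06). Oma1, a mitochondrial protease that relays stress to HRI, rose by 0.70 and 0.78, and Eif2a, an alternative initiation factor, fell (log2 -1.15 and -0.99).

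Paralogs of the members moved both ways, as did genes at large. Of 12 listed, 7 were tested, of which 1 rose and 4 fell in shYap-1 libraries, while 2 rose and 4 fell in those of shYap-2. The shares over all genes tested were 37.6% up and 27.6% down with shYap-1, then 43.2% and 30.5% with shYap-2. Sesn3, a sestrin like Sesn2, rose to 42.5 and 35.3 FPKM (log2 1.98 and 1.72, limma adjusted p = 2e-06 and 5.89e-09), while Sesn1 fell (log2 -0.47 and -0.35, adjusted p = 0.00187 and 0.00174). Trib2 fell (log2 -0.71 and -0.49), and Trib1 stood at -0.01 (limma adjusted p = 0.928) with shYap-1 and rose by 0.19 (adjusted p = 0.0136) with shYap-2, a call lost under either scaling, with a linear trend on GC content removed (0.12, adjusted p = 0.068) and without shYap-2 replicate 3. Cebpg, which pairs with ATF4 on its target sites, fell, at -1.27 and -1.21.

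Other bZIP factors mostly fell: 13 of 18 tested fell and 4 rose with shYap-1, and 12 fell and 2 rose with shYap-2, with medians of -0.60 and -0.58 beside 0.07 and 0.08 over all genes. Of all genes tested, 27.6% fell and 37.6% rose with shYap-1, against 30.5% and 43.2% with shYap-2. Under either scaling 2 of the bZIP genes rose with each hairpin. Batf3 passed the filter only through shCTRL, and Cebpg also stands among the paralogs. Atf3, a stress-induced repressor downstream of ATF4, fell from 22.9 FPKM to 5.51 and 4.47 (log2 -1.88 and -2.13, limma adjusted p = 2.24e-06 and 1.01e-08). Jdp2 fell (log2 -1.23 and -1.38), as did Nfil3 (-0.99 and -1.21), Crebzf (-0.94 and -0.90) and Fosl2 (-0.91 and -0.92). Jund rose from 133.5 FPKM to 245.3 and 219.3 (log2 0.87 and 0.71), and Junb rose by 0.25 and 0.18, both named after their values were seen. All of these had limma adjusted p under 0.05 with both hairpins.

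Further ATF4 targets fell nearly throughout. Of 40 listed genes 37 were tested, and 31 fell and 3 rose with shYap-1 while 32 fell and 4 rose with shYap-2. Beside these, 27.6% of all genes fell and 37.6% rose with shYap-1, and 30.5% fell and 43.2% rose with shYap-2. The medians of the list were -1.31 and -1.25. Slc7a11, the cystine importer, and Fgf21, a stress hormone, passed the filter only through shCTRL. Since Trib3, Chac1 and Ddit4 were seen to fall before this list was drawn up, it is not independent evidence of the direction.

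Among those with the smallest adjusted p, Gpt2, a mitochondrial alanine transaminase, fell from 45.4 FPKM to 6.77 and 7.16 (log2 -2.58 and -2.51, limma adjusted p = 8.33e-07 and 5.85e-09). Slc6a9, a glycine transporter, fell (log2 -2.58 and -2.48), and Asns, asparagine synthetase, fell from 199.2 FPKM to 49.0 and 51.1 (log2 -2.0 and -1.94). Mthfd2, of mitochondrial folate metabolism, fell (log2 -2.39 and -2.06), and so did Psat1, of serine synthesis (-2.12 and -1.70). These 2 genes differed between the hairpins, higher with shYap-2 by 0.33 (limma adjusted p = 0.021) and 0.42 (0.00992). In simulated data 7.59% of calls between the hairpins were false, above the nominal threshold. Neither gene passed when any of the 3 shYap-2 libraries was left out. Mthfd2 also did not pass without shYap-1 replicate 1 or 3. The genes that rose with both hairpins were Map1lc3b (1.46 and 1.14), Sqstm1 (0.60 and 0.40) and Atg5 (0.64 and 0.54), all of autophagy and named after their values were seen. Wars, a tRNA synthetase gene, rose with shYap-2 by 0.09 (limma adjusted p = 0.046), and under either scaling 3 genes of the list rose with that hairpin.

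**Figure D5:**
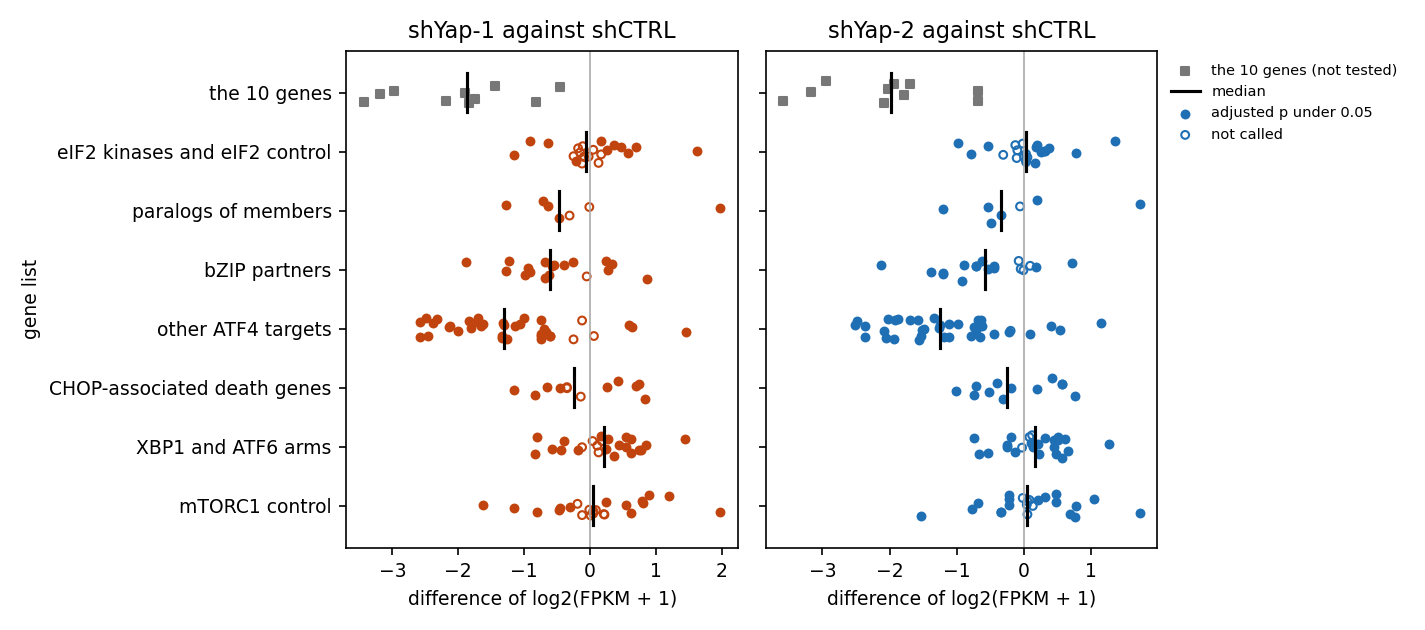
Difference of log2(FPKM + 1) from shCTRL for the 10 genes (grey squares, not tested) and for each tested gene of 7 pathway lists, filled where the limma adjusted p was under 0.05, with the list median as a bar. The ATF4 targets have medians of -1.31 and -1.25, while those of the eIF2, XBP1 and ATF6, and mTORC1 lists lie between -0.06 and 0.21.

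Genes tied to CHOP-driven death moved both ways. Of 12 tested, 5 rose and 4 fell in shYap-1 libraries, while 5 rose and 7 fell in those of shYap-2, with medians of -0.24 and -0.26. Of all genes tested, 37.6% rose and 27.6% fell in shYap-1 libraries (43.2% and 30.5% for shYap-2), so the shYap-1 counts of the list are near that background. Casp8, an initiator caspase, rose by 0.83 and 0.76, Tnfrsf10b, a death receptor that CHOP is known to induce, by 0.75 and 0.57, and Bcl2l11, encoding the pro-death protein BIM, by 0.70 and 0.57. The survival gene Bcl2, which CHOP is known to repress, fell from 5.06 FPKM to 2.39 and 2.71 (log2 -0.84 and -0.71, limma adjusted p = 0.000113 and 2.49e-05), and Bcl2l1 fell (log2 -0.46 and -0.40). With either scaling, 4 rose and 6 fell with shYap-1.

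Genes of the other arms of the unfolded protein response, run by XBP1 and ATF6, moved both ways. Of 24 genes tested, 13 rose and 6 fell with shYap-1, against 14 up and 7 down with shYap-2, with medians of 0.21 and 0.17. All genes also rose more often than they fell, 37.6% against 27.6% and 43.2% against 30.5%. After trimmed-mean scaling 10 rose and 7 fell in shYap-1 libraries, while 11 rose and 7 fell in those of shYap-2, with medians of 0.09 and 0.06. Calr, a calcium-binding chaperone, rose from 160.1 FPKM to 437.9 and 388.2 (log2 1.45 and 1.27, limma adjusted p = 1.37e-06 and 2.83e-09), and Sec61a1, of the protein import channel, rose by 0.85 and 0.66. Dnajb9, an XBP1 target, rose by 0.74 (limma adjusted p = 0.0129) and 0.61 (0.000228), and Dnajb11 and Sel1l rose with both hairpins. Hspa5, the chaperone BiP, rose by 0.25 (limma adjusted p = 0.0161) and 0.21 (8.07e-05), the first of which was lost under either scaling and without shCTRL replicate 1 or 3 or shYap-1 replicate 1 or 3. Xbp1 itself stood at 0.18 and 0.12 (limma adjusted p = 0.197 and 0.107), with 0.28 (0.0169) for shYap-1 without its replicate 2 and 0.17 (0.0237) for shYap-2 without shCTRL replicate 3. The sensor genes of both arms fell, Atf6 at -0.58 and -0.54 and Ern1, which encodes the XBP1-splicing sensor IRE1, at -0.83 and -0.75 (limma adjusted p = 0.000299 and 1.87e-05). The chaperone genes Hyou1 (-0.40 and -0.26) and Hsp90b1 (-0.44 and -0.25) also fell with both hairpins; these and Ern1 were named after their values were seen.

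Among genes of mTORC1 control, the process that Ddit4 and Sesn2 restrain, 8 of 23 tested rose and 6 fell in shYap-1 libraries, and 9 rose and 7 fell in those of shYap-2, both with a median of 0.05. These counts are near the shares over all genes (37.6% up and 27.6% down, then 43.2% and 30.5%), and under either scaling they became 7 and 7 for shYap-1, then 8 and 8 for shYap-2. Eif4ebp1, a translation repressor that mTORC1 inactivates and an ATF4 target counted in both lists, fell from 157.8 FPKM to 50.9 and 54.0 (log2 -1.62 and -1.53, limma adjusted p = 8.26e-06 and 2.83e-09). Restraints of the kinase went both ways. Sesn3 rose by 1.98 and 1.72, and Sesn1 and Sesn3 were also counted among the paralogs. Nprl3, of the amino acid sensing GATOR1 complex, rose by 1.2 and 1.04, and Tsc2, of the complex through which Ddit4 acts, by 0.81 and 0.68, while Sesn1 and the mTOR inhibitor gene Deptor fell, the latter at -1.15 and -0.78 (limma adjusted p = 7.88e-05 and 3.68e-05) and named after its values were seen. Flcn, which acts on the Rag GTPases, rose by 0.90 and 0.76. Across all 7 lists, direct tests between hairpins called 3 genes, Psat1, Mthfd2 and Nfe2l1 (-0.33, limma adjusted p = 0.0305). That count was 0 when any 1 of the 3 shYap-2 libraries was left out, 1 without shYap-1 replicate 3 and 32 without shYap-1 replicate 2.

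The genes nearest in pattern to Trib3, Chac1 and Ddit4 over the 9 libraries are given as a description. By Euclidean distance between log2(FPKM + 1) values less their shCTRL mean, over 8259 genes, the nearest non-members were Cxcl5, Cxcl1 and Ciart, in that order. These are also the 3 non-members with the lowest differences from shCTRL with either hairpin (log2 -3.01, -2.91 and -2.86 for shYap-1), so picking the members by their fall fixes them as neighbours. The distances were 1.63, 1.93 and 2.01 from Trib3, 0.833, 1.10 and 1.24 from Chac1 and 0.556, 0.702 and 0.741 from Ddit4. Cxcl5 and Cxcl1 encode neutrophil-attracting chemokines and Ciart a circadian repressor. Cxcl1 went from 90.8, 103.29 and 84.56 FPKM in shCTRL to 10.53, 12.45 and 11.45 in shYap-1 and 15.15, 13.42 and 14.74 in shYap-2.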

How the data were processed

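The authors deposited gene-level FPKM values, rounded to 2 decimals, in 2 tables, 1 per hairpin, and the shCTRL values in them were identical. Per the submitters' processing notes, fastp 0.18.0, HISAT2 2.1.0, StringTie 1.3.4, RSEM and the mm10 build were used, with no role given for each. Which annotation and filters served, and whether strand was used, is not given in the sources used here. Symbols and positions were taken from GENCODE vM21 and upstream sequences from RefSeq. Values were analysed as log2(FPKM + 1) with limma 3.58.1 (R 4.3.3, moderated test with a trend on mean level), for genes with at least 1 FPKM in 3 of the libraries fitted, with Benjamini-Hochberg adjustment over all genes and a threshold of 0.05. Each hairpin was fitted against shCTRL within its own table, and the hairpins against each other over all 9 libraries. The fit was tested on simulated data, where 7.59% of calls were false for shYap-2 against shYap-1, above the nominal threshold. For shYap-1 and shYap-2 against shCTRL 1.97% and 2.72% were false. Genes varied independently in the simulation, which lacked the deviation of shYap-1 replicate 2 along GC content. It therefore cannot show how many calls are false in these libraries. An exact permutation test of 3 against 3 cannot go below p = 0.1, so none is given. Depth was estimated from the steps of low FPKM values, a step checked on simulated data; fragment numbers cover counting error only.

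The members and lists were chosen with earlier results of these data known. Ppp1r15b, Atf6, Dnajc3, Cebpg, Eif4ebp1, Sesn1 and Sesn3 were each counted in 2 lists. Named were all members and up to 5 genes per list ranked by adjusted p when the hairpins were averaged. A fixed set of kinases, factors, paralogs and chaperones was also named, with the 3 nearest genes by pattern of Trib3, Chac1 and Ddit4. Jund, Junb, Nfe2l1, Ern1, Hyou1, Hsp90b1, Deptor and the genes that rose among the ATF4 targets were added after their values were seen. Alternatives were another pseudocount, other filters, 2 scalings, limma without the trend, a linear trend on GC content removed, the replicate number as a block, all libraries in 1 fit, and each library left out.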

Additional observations from a re-analysis of the deposited data

Results flagged for a closer look

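Among the named genes, 2 ATF4 targets were picked out because their differences from shCTRL were unequal for the hairpins by a direct test. Psat1 was higher with shYap-2 than with shYap-1 by 0.42 on the log2 scale (limma adjusted p = 0.00992), with 286.8 FPKM in shCTRL, 65.4 with shYap-1 and 87.6 with shYap-2. Mthfd2 was higher by 0.33 (limma adjusted p = 0.021), with 147.5, 27.4 and 34.7 FPKM. Leaving out any shYap-2 library took both above the threshold, with differences of 0.29 to 0.43 and limma adjusted p of 0.0598 to 0.109. Mthfd2 also lost its call without shYap-1 replicate 1 or 3. In simulated data 7.59% of calls between the hairpins were false, above the nominal threshold.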

How the results depend on the processing

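All members stayed below shCTRL under every alternative run. Their median log2 difference with shYap-2, -1.98, became -2.10 with a pseudocount of 0.1 and -2.11 with the GC trend removed. Counts between the hairpins depended most on processing: 353 genes became 1302 with the GC trend removed and 1 to 1646 when a library was left out (1646 without shYap-1 replicate 2, and 3, 1 and 1 without shYap-2 replicates 1, 2 and 3). Without shCTRL replicates 1, 2 and 3 it was 203, 179 and 184, and without shYap-1 replicates 1 and 3 it was 196 and 80. The 3 other pathway genes called became 7 with FPKM of at least 5, 16 with the GC trend removed and 0 to 32 with a library left out. The members called were 0 to 1 with a library left out. The cause was not tested.

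Same-numbered libraries deviated from their group means with correlations of -0.237 to 0.344, beside -0.393 to 0.325 for libraries of different numbers. With 3 libraries per group and no word on cultures in the labels, this does not settle whether the numbers pair the samples. With the replicate number as a block, 141 genes differed between the hairpins, 6785 between shYap-1 and shCTRL and 7808 between shYap-2 and shCTRL. Eif2ak4 then lost its call with shYap-2 (limma adjusted p = 0.0587).

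Some differences between the hairpins changed sign. Among members, with a library left out, Ddit4 ran from -0.06 to 0.17 (the last called, limma adjusted p = 0.014), Chac1 from -0.06 to 0.11 and Sesn2 from -0.07 to 0.0, and Sesn2 was 0.01 with the GC trend removed. Among other genes, the ranges were -0.03 to 0.26 for Eif2a, 0.0 to 0.17 for Oma1, -0.05 to 0.05 for Eif2ak1, -0.11 to 0.20 for Cebpg, -0.04 to 0.04 for Fosl2, 0.0 to 0.09 for Crebzf, -0.02 to 0.08 for Atf6, -0.16 to 0.03 for Xbp1 and -0.11 to 0.01 for Hspa5. Ppp1ca was 0.0 with trimmed-mean scaling and 0.01 with the GC trend removed, and Fosl2 was 0.01, 0.0 and 0.01 under both scalings and the GC trend. Against shCTRL with shYap-1, Eif2ak4 was -0.06 under either scaling and Trib1 ran from -0.04 to 0.02.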
